A study of Mus musculus with 9 samples.

Results

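Aminoacyl-tRNA synthetases are the enzymes that join each amino acid to its transfer RNA (tRNA), and they were followed here in mouse red cell precursors that carried 2, 1 or 0 copies of a beta-thalassemia allele. The members were 39 genes: 20 cytosolic enzyme genes, 16 mitochondrial ones whose names end in 2, and 3 scaffold proteins. They were chosen by gene symbol, out of 19938 genes with a probe set of their own on the array, and each gene was read from its brightest probe set. Of the 39 members, 37 had such a probe set, and all 37 passed the filter on low values. The cytosolic genes Aars (alanine) and Dars (aspartate) had none.

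The embryos were Th3/Th3, Th3/+ and wild type, all from matings of 2 Th3/+ parents, and each genotype had 3 biological replicates on 1 array each. All shared a 129SV background that had been backcrossed to C57BL/6. Th3 is a deletion of the adult beta-globin genes, so Th3/+ cells keep 1 intact copy of the locus. Fetal livers were taken at stage E14.5, and cells with surface CD71 and Ter119 and high forward scatter were sorted. No label states how many embryos went into a replicate, and the p-values measure only the spread between these samples.

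Charging takes place in both compartments that make protein. The cytosol uses 1 set of enzymes, several of which are bound together with the scaffold proteins Aimp1, Aimp2 and Eef1e1 in the multisynthetase complex, while the rest work outside it. Mitochondria translate their own few messages with a separate, nucleus-encoded set. Gars and Kars are exceptions, since 1 gene makes the cytosolic and the mitochondrial form, and mitochondria charge glutamine by an indirect route. Many cytosolic synthetase genes are known targets of ATF4, the transcription factor that answers amino acid shortage and other stresses, which binds the C/EBP-ATF response element. Erythroblasts depend on high protein output because they fill with globin.

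The promoter sequences are shown first because they are independent of the array values. Their part in the members' changes was not tested. The RefSeq promoter table (GRCm38.p6) held a window of 300 bases, from 250 before to 50 after the annotated start, for 30 of the 39 members. The core of the response element, TGATGNAA on either strand (TTNCATCA when read from the other strand), was found in 5 of 13 cytosolic genes, 0 of 14 mitochondrial genes and 0 of 3 scaffold genes. It was found in 4.51% of the 27025 genes with a window (3.97% of all 32851 windows). The 5 genes were Aars, Gars, Iars, Tars and Yars. Each match is printed 5′ to 3′ on the gene's strand with 20 bases on either side, with the 8 bases of the match in capitals.
Gars, glycine (chr6:55037951-55037998, + strand): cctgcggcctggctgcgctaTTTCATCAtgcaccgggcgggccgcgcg
Tars, threonine (chr15:11399646-11399693, - strand): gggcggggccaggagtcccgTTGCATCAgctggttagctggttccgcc
Aars, alanine, upstream match (chr8:111033710-111033757, + strand): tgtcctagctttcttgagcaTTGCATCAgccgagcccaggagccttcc
Aars, alanine, downstream match (chr8:111033831-111033878, + strand): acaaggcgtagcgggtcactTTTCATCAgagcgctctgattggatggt
Iars, isoleucine (chr13:49682117-49682164, + strand): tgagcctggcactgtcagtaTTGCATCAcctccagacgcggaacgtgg
Yars, tyrosine (chr4:129189886-129189933, + strand): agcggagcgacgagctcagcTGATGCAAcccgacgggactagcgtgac
The Gars match began 30 bases before the start and the Tars match 15 bases before it, while those of Yars and Iars began 3 and 7 bases past it.

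The E-box CACGTG, a palindrome bound by MYC-type factors, was found in the windows of 4 of 13 cytosolic genes (Aars, Farsb, Iars and Tars), 1 of 14 mitochondrial genes (Ears2) and 0 of 3 scaffold genes. It was found in 8.09% of all genes with a window (7.15% of windows). Only Aars, Iars and Tars, of the 30, held both motifs, and no match of one overlapped a match of the other. A match is a description of letters and not a measured binding site. Windows were not in the table for Cars, Hars, Lars, Nars, Rars, Vars, Wars, Hars2 and Pars2.

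In Th3/Th3 cells 6 members rose against wild type, 1 fell and 30 did not pass the test (limma, adjusted p under 0.05 over 17742 probe sets). The 6 were the cytosolic enzyme genes Sars (serine), Gars (glycine), Rars (arginine), Cars (cysteine) and Qars (glutamine) and the scaffold gene Aimp1, and their rises were 1.51-fold to 1.92-fold. The 1 that fell was Nars2, the mitochondrial asparagine enzyme. Of the 12898 genes tested, 7.71% were called higher and 5.37% lower in this comparison, so 6 of 37 (16.2%) stands above the first share and 1 of 37 below the second. All 3 Th3/Th3 arrays lay above all 3 wild type arrays for 11 members and below them for 1, against 15.5% and 12.4% of all genes tested. The median change over the 37 members was 0.08 on the log2 scale, against -0.00038 over all genes tested. It was 0.14 without wild type replicate 1 and without Th3/Th3 replicate 2, 0.16 under the stricter filter and 0.03 with each array centred on its median. Each value is a log2 array value, and levels of different genes are not compared because each probe set binds its own sequence. More RNA per cell and more of the cells that express a gene cannot be told apart in such samples.

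**Figure D1:**
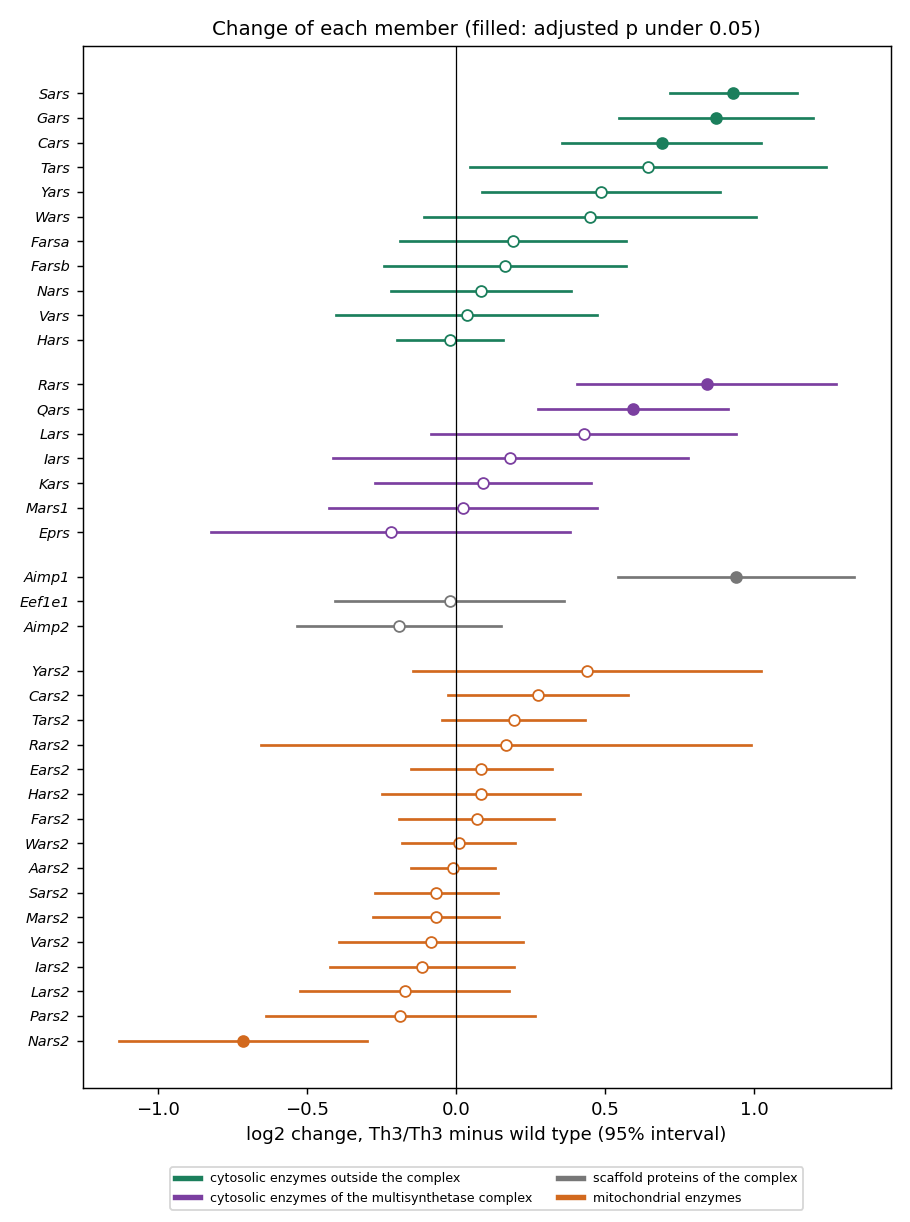
Change of each of the 37 members in Th3/Th3 against wild type, as the difference of mean log2 values with its 95% interval from limma. Filled points passed the test: Sars, Gars, Cars, Rars, Qars and Aimp1 to the right of 0 and Nars2 to the left, while the mitochondrial enzymes otherwise lie around 0.

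The arrays fell into the genotypes on the first principal component (47.4% of the variance). Th3/Th3 replicate 1 and Th3/+ replicate 1 stood apart at the high end of the second (16.7%), so results are also given without them. Scores on it fell from replicate 1 to replicate 3 within every genotype. Wild type replicates 1, 2 and 3 scored 7.7, 5.2 and -12. The Th3/+ ones scored 20.5, -10.1 and -13, those of Th3/Th3 25.5, -8.9 and -14.9. Leaving out the arrays that stood apart keeps wild type replicate 1, so replicate numbers are unbalanced in that fit. The part of this imbalance in its results was not tested. Without both Th3/Th3 replicate 1 and Th3/+ replicate 1, 7 members were called higher and 1 lower in Th3/Th3 against wild type. In that fit 15.4% of all genes were called in either direction. With 1 array left out the members called came to 3 without wild type replicate 2 or 3 or Th3/Th3 replicate 2, and to 4 when either Th3/Th3 replicate 3 or the first wild type array was dropped. Of all genes tested, 8.6% and 8.83% were called in either direction without wild type replicates 2 and 3, and 9.74% without Th3/Th3 replicate 2. Counted in either direction, 3 of 37 did not stand above these shares. The 3 were Gars, Sars and Aimp1, all higher. The share of all genes called higher was not computed in these fits, so the higher count has no background there. Under a stricter filter on low values 7 of 31 members were called, near the 22.4% of all genes. The adult beta-globin probe sets, which several globin genes share, read 8.43 to 10.09 in Th3/Th3, 13.68 to 13.81 in Th3/+ and 13.76 to 13.86 in wild type arrays. Of the 7 erythroblast markers with a probe set of their own (Tfrc, Epor, Klf1, Gata1, Alas2, Slc4a1 and Hemgn), 5 fell in Th3/Th3. Their mean log2 value was 10.44 to 10.74 in Th3/Th3, 11.10 to 11.17 in Th3/+ and 11.21 to 11.31 in wild type arrays. The mean over 9 macrophage markers was 4.75 to 4.86 in Th3/Th3, 4.98 to 5.52 in Th3/+ and 5.03 to 5.44 in wild type arrays, and 2 of the 8 tested fell. Of 7 hepatoblast and 5 megakaryocyte markers tested, 0 passed in Th3/Th3 (limma), with 0 and 2 at an unadjusted p under 0.05. The part of these shifts in the members' changes was not tested.

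Sars was the member with the smallest adjusted p. It read 11.12, 10.89 and 11.07 in Th3/Th3, 10.55, 10.52 and 10.60 in Th3/+, and 10.17, 10.001 and 10.12 in wild type arrays. The 3 genotypes did not overlap, and Th3/+ lay midway. Sars rose by 0.93 in Th3/Th3 against wild type (1.91-fold, SE 0.0947, limma adjusted p = 0.000475), and by 0.47 against Th3/+ (1.39-fold, adjusted p = 0.0179). In Th3/+ against wild type the difference was 0.46 (95% interval 0.25 to 0.67, adjusted p = 0.501). Its Th3/Th3 change against wild type passed the test in all 18 alternative settings, with a range of 0.88 to 1.00. The call against Th3/+ was lost without Th3/+ replicate 2 (adjusted p = 0.0795), without Th3/Th3 replicate 3 (0.0555) and without both arrays that stood apart (0.0812).

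The promoter window of Sars held neither motif, and it is printed beside that of Gars, which held the response element, because these are the enzymes with the largest rises. In the first line capitals mark the match, and the second has none.
Gars (chr6:55037751-55038050, + strand): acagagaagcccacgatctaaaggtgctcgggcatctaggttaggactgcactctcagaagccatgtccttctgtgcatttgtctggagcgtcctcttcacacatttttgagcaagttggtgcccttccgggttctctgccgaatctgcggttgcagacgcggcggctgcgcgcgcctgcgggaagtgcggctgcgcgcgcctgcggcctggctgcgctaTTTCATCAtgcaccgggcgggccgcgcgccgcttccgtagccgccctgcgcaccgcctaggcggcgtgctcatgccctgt
Sars (chr3:108445210-108445509, - strand): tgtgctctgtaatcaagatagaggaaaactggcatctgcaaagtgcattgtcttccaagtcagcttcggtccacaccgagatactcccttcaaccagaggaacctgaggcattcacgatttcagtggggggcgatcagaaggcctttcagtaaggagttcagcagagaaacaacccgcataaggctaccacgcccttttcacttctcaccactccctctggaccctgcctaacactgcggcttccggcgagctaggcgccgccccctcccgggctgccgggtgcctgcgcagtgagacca
The absence of these letters from the Sars window says nothing of which factors act on the gene. Of the 5 called members with a window (Gars, Qars, Sars, Nars2 and Aimp1), Gars alone held the response element. Iars, Tars and Yars held it and were not called, and Aars had no probe set of its own.

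Gars, which serves cytosol and mitochondria from 1 gene, read 10.49, 10.79 and 10.93 in Th3/Th3, 10.22, 10.42 and 10.55 in Th3/+, and 9.92, 9.99 and 9.69 in wild type arrays. All Th3/Th3 arrays and all Th3/+ arrays lay above all wild type arrays, while Th3/Th3 and Th3/+ overlapped. It rose by 0.87 in Th3/Th3 (1.83-fold, SE 0.144, adjusted p = 0.00476), a call kept in all 18 settings. The Th3/+ difference from wild type was 0.53 (95% interval 0.21 to 0.85, adjusted p = 0.885).

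Cars, the cysteine enzyme, works outside the complex. It read 8.83, 9.09 and 9.14 in Th3/Th3, 8.45, 8.61 and 8.77 in Th3/+, and 8.52, 8.30 and 8.17 in wild type arrays. The Th3/Th3 arrays lay above all others. Cars rose by 0.69 (1.61-fold, SE 0.148, adjusted p = 0.0154). The call was lost without wild type replicate 2 or 3 (adjusted p = 0.0546 and 0.0610) and without Th3/Th3 replicate 2 or 3 (0.0527 and 0.0533).

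The other 8 cytosolic enzymes measured outside the complex did not pass the test, though all 3 Th3/Th3 arrays lay above all 3 wild type arrays for Tars (threonine), Yars (tyrosine), Wars (tryptophan) and Farsb (a phenylalanine subunit). Tars read 7.81, 8.19 and 8.59 in Th3/Th3, 7.44, 7.46 and 8.19 in Th3/+, and 7.74, 7.71 and 7.21 in wild type arrays, a difference of 0.64 (95% interval 0.05 to 1.24, adjusted p = 0.163). Yars read 9.35, 9.22 and 9.46 in Th3/Th3 and 8.98, 8.63 and 8.97 in wild type arrays, a difference of 0.49 (0.09 to 0.89, adjusted p = 0.117). Its 3 Th3/Th3 arrays also lay above all 3 Th3/+ arrays, which read 8.52, 8.80 and 9.16. Wars, whose enzyme is also known as an interferon-induced protein, read 6.90, 6.74 and 7.10 in Th3/Th3, 5.81, 6.68 and 6.89 in Th3/+, and 6.44, 6.34 and 6.62 in wild type arrays, a difference of 0.45 in Th3/Th3 (-0.11 to 1.01, adjusted p = 0.302). Th3/+ replicate 1 was its lowest array. Nars (asparagine), Vars (valine), Farsa and Farsb (the subunits of the phenylalanine enzyme) and Hars (histidine) differed by -0.02 to 0.19. Farsa read 8.39, 8.11 and 8.32 in Th3/Th3, 8.09, 8.16 and 8.52 in Th3/+, and 8.32, 7.86 and 8.07 in wild type arrays, and the 3 genotypes overlapped. Hars was the steadiest member. It read 10.41, 10.39 and 10.44 in Th3/Th3, 10.44, 10.52 and 10.44 in Th3/+, and 10.44, 10.42 and 10.44 in wild type arrays. Its interval in Th3/Th3 against wild type was -0.20 to 0.16. The identical value 10.4384 recurred on arrays of all 3 genotypes, and the part of such repeats in its small spread was not tested.

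The probe set that the annotation lists for Aars together with its neighbour Exosc6, a subunit of the RNA exosome, read 9.53, 9.53 and 9.66 in Th3/Th3 and 9.50, 9.18 and 9.45 in wild type arrays (difference 0.19, adjusted p = 0.361). The share of Aars in that signal cannot be told apart from that of Exosc6, and it was not counted.

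Among the 7 enzymes of the multisynthetase complex that were measured, 2 rose and 0 fell in Th3/Th3 (limma, with 2 and 0 at an unadjusted p under 0.05), and their median change was 0.18. Over the 11 enzymes outside the complex 3 rose and 0 fell, with a median of 0.45 (all genes tested: 7.71% higher, 5.37% lower). The order of these medians turned without Th3/Th3 replicate 1, at 0.50 for the complex and 0.46 outside it, and with the same values without both arrays that stood apart. The complex median was 0.06 without Th3/Th3 replicate 3, and 0.33 when the probe sets of a gene were averaged. Of the enzymes of the complex, 0 were called when any wild type array or Th3/Th3 replicate 2 or 3 was dropped. Rars read 9.57, 10.09 and 10.21 in Th3/Th3, 9.27, 9.59 and 9.80 in Th3/+, and 9.19, 8.97 and 9.20 in wild type arrays. Every Th3/Th3 and every Th3/+ array lay above all wild type arrays. Rars rose by 0.84 in Th3/Th3 (1.79-fold, SE 0.193, adjusted p = 0.0209), and in Th3/+ it differed from wild type by 0.44 (adjusted p = 1.00). The call was lost without wild type replicate 1, 2 or 3 (adjusted p = 0.0544, 0.0785 and 0.0532) and without Th3/Th3 replicate 2 or 3 (0.0731 and 0.0713).

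Qars, the glutamine enzyme, read 8.42, 8.34 and 8.43 in Th3/Th3, 7.67, 8.01 and 8.16 in Th3/+, and 7.88, 7.73 and 7.81 in wild type arrays. The Th3/Th3 arrays lay above all others, and the Th3/+ and wild type arrays overlapped. It rose by 0.59 (1.51-fold, SE 0.142, adjusted p = 0.0251), a call lost without wild type replicate 1, 2 or 3 (adjusted p = 0.0570, 0.0865 and 0.0727) and without Th3/Th3 replicate 2 or 3 (0.0540 and 0.0668).

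Of the other enzymes of the complex, Lars (leucine) read 8.77, 9.44 and 9.57 in Th3/Th3, 8.79, 9.35 and 9.30 in Th3/+, and 8.69, 8.89 and 8.92 in wild type arrays, a difference of 0.43 (95% interval -0.08 to 0.94, adjusted p = 0.282). Th3/Th3 replicate 1 was the array that overlapped with wild type. Without it and Th3/+ replicate 1, Lars passed the test at 0.67 (adjusted p = 0.0141). That fit kept replicate 1 of wild type only, and the part of this imbalance in the call was not tested. Eprs, which joins the glutamate and the proline enzyme in 1 protein, read 7.77, 8.69 and 8.75 in Th3/Th3, 8.57, 8.99 and 8.92 in Th3/+, and 8.52, 8.42 and 8.94 in wild type arrays (difference -0.22, adjusted p = 0.677), and again replicate 1 was the low one. Kars (lysine), Mars1 (methionine) and Iars (isoleucine) differed by 0.09, 0.02 and 0.18.

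Iars has 2 probe sets that the annotation gives to it alone. The brighter one, used here, read 8.52, 9.27 and 9.65 in Th3/Th3 and 9.10, 8.91 and 8.88 in wild type arrays (adjusted p = 0.735). The dimmer one read 8.43, 8.62 and 8.88 in Th3/Th3, 8.58, 8.79 and 8.77 in Th3/+, and 8.18, 8.12 and 8.22 in wild type arrays. On it the Th3/Th3 difference was 0.47 (adjusted p = 0.0599) and the Th3/+ difference 0.54 (adjusted p = 0.819). Both genotypes with the allele lay above wild type on the dimmer probe set only.

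Of the 3 scaffold genes 1 rose and 0 fell in Th3/Th3 (limma, with 1 and 0 at an unadjusted p under 0.05). The shares over all genes tested were 7.71% higher and 5.37% lower, and 3 genes are too few to set beside them. Aimp1, also known as p43, whose cleaved form acts as a cytokine, read 8.69, 9.09 and 8.81 in Th3/Th3, 7.88, 8.07 and 8.19 in Th3/+, and 8.22, 7.87 and 7.67 in wild type arrays. The Th3/Th3 arrays lay above all others, while Th3/+ and wild type overlapped. It rose by 0.94 against wild type (1.92-fold, SE 0.176, adjusted p = 0.00822) in all 18 settings, and by 0.81 against Th3/+ (1.75-fold, adjusted p = 0.0247). The second call was lost without Th3/+ replicate 1, 2 or 3 (adjusted p = 0.0787, 0.0816 and 0.0511), without Th3/Th3 replicate 2 or 3 (0.0818 and 0.0555) and without both arrays that stood apart (0.0697). Aimp2 (p38), the scaffold's core, differed from wild type by -0.19 (95% interval -0.54 to 0.15) and Eef1e1 (p18) by -0.02 (-0.41 to 0.36), with adjusted p = 0.491 and 0.956.

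**Figure D2:**
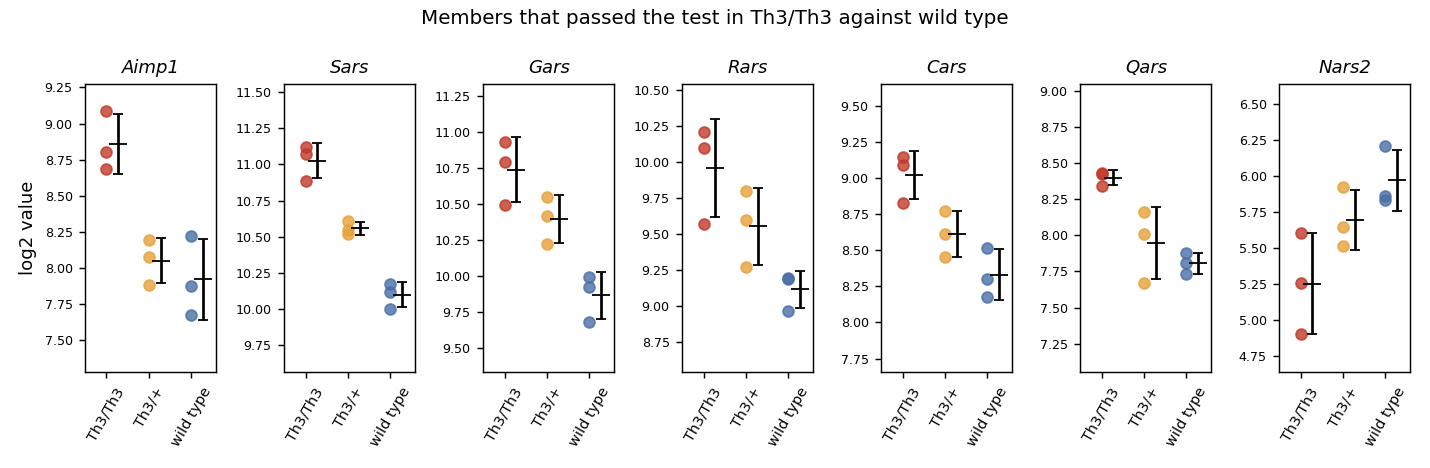
Log2 value of each array (points) with the mean and SD of 3 arrays (black) for the 7 members that passed the test in Th3/Th3 against wild type. Each panel spans 2 log2 units. The Th3/Th3 arrays do not overlap with wild type in any panel, and the Th3/+ mean lies between the other means in all 7.

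Of the 16 mitochondrial enzymes 0 rose and 1 fell in Th3/Th3 (limma, with 0 and 1 at an unadjusted p under 0.05). Over all genes tested 7.71% were called higher and 5.37% lower, so 1 of 16 lies near the second share. Their median change was -0.00125, with 8 above and 8 below 0. Nars2 read 4.90, 5.25 and 5.60 in Th3/Th3, 5.64, 5.52 and 5.92 in Th3/+, and 5.86, 6.21 and 5.83 in wild type arrays. The Th3/Th3 arrays lay below all wild type arrays. Nars2 fell by 0.72 (1.64-fold, SE 0.185, adjusted p = 0.0344). It was the call that most settings ended: it was lost in 8 of 18, among them without the filter on low values (adjusted p = 0.0584), with only the Th3/Th3 and wild type arrays in the fit (0.0669) and without both arrays that stood apart (0.0975). Leaving out wild type replicate 1, 2 or 3 also ended it (0.0707, 0.121 and 0.0653), as did Th3/Th3 replicate 1 or 2 (0.0784 and 0.0889).

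The mitochondrial enzymes with the smallest p among those not called were Cars2, Tars2, Yars2, Lars2 and Pars2. Cars2 (cysteine) read 6.43, 6.65 and 6.80 in Th3/Th3, 6.31, 6.34 and 6.43 in Th3/+, and 6.59, 6.19 and 6.28 in wild type arrays, a difference of 0.27 (95% interval -0.03 to 0.58). Tars2 (threonine) read 6.57, 6.24 and 6.25 in Th3/Th3, 6.05, 6.02 and 5.99 in Th3/+, and 6.22, 6.09 and 6.17 in wild type arrays. Its Th3/Th3 arrays lay above and its Th3/+ arrays below all wild type arrays, with differences of 0.19 and -0.14 that did not pass (adjusted p = 0.307 and 1.00).

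Yars2 (tyrosine) read 5.09, 5.72 and 6.11 in Th3/Th3, 4.92, 5.30 and 5.34 in Th3/+, and 5.47, 4.79 and 5.34 in wild type arrays, a difference of 0.44 in Th3/Th3 (-0.14 to 1.02). Lars2 (leucine) read 5.79, 5.53 and 6.11 in Th3/Th3, 5.96, 6.21 and 6.40 in Th3/+, and 5.96, 5.99 and 5.99 in wild type arrays, a difference of -0.17 (-0.52 to 0.18). In both, Th3/Th3 overlapped with wild type. Pars2, the mitochondrial proline enzyme, read 4.90, 4.14 and 4.16 in Th3/Th3, 5.10, 4.70 and 4.58 in Th3/+, and 4.60, 4.58 and 4.58 in wild type arrays. Th3/Th3 replicate 1 lay above wild type and the other Th3/Th3 arrays below it. Without both arrays that stood apart Pars2 passed the test, at -0.44 against wild type and -0.49 against Th3/+ (adjusted p = 0.00689 and 0.0135). For Pars2 the Th3/Th3 and wild type arrays all read below the array medians (4.97 to 5.05). The identical value 4.57741 recurred on wild type replicates 2 and 3 and Th3/+ replicate 3. The part of low signal, of such repeats and of the unbalanced replicate numbers in these calls was not tested. Th3/Th3 replicate 1 was the lowest of all 9 arrays for Rars2 (arginine), the member with the largest spread, which read 5.92, 6.72 and 7.36 in Th3/Th3, 6.12, 7.15 and 6.97 in Th3/+, and 6.21, 6.69 and 6.61 in wild type arrays. The remaining Aars2, Ears2, Fars2, Hars2, Iars2, Mars2, Sars2, Vars2 and Wars2 differed from wild type by -0.12 to 0.08. Their intervals were widest for Hars2 (-0.25 to 0.42) and narrowest for Aars2 (-0.15 to 0.13).

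The cytosolic and mitochondrial sets were set side by side. In Th3/Th3 against wild type the 18 cytosolic enzymes had a median change of 0.31, with 5 called higher, 0 lower and 16 above 0, and the 16 mitochondrial enzymes had the median near 0 given above. Without Th3/Th3 replicate 1 these medians were 0.47 and -0.04, and over all settings the mitochondrial one lay between -0.06 and 0.03. The difference of the medians was 0.31. It was 0.24 to 0.51 when 1 array was left out, the highest without Th3/Th3 replicate 1, and 0.51 without both arrays that stood apart. Wild type replicate 1 stayed in both fits that gave 0.51, and the part of this imbalance was not tested. Of all genes tested 49.9% lay above 0, 7.71% were called higher and 5.37% lower. The wild type means were 6.46 to 11.3 for the cytosolic and 4.46 to 8.37 for the mitochondrial probe sets. The stricter filter on low values kept 18 cytosolic and 10 of the 16 mitochondrial enzymes. The difference of the medians was 0.31 there as well. The part of signal level in this difference was not tested. The pooled SD between arrays of 1 genotype had a median of 0.228 over the cytosolic enzymes, 0.167 over the mitochondrial ones and 0.158 over all genes tested.

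The contrast was also read within amino acids, from the same values. For 13 amino acids both enzymes were measured (Farsa standing for the cytosolic phenylalanine enzyme), and in 12 of the 13 the cytosolic change was the higher one in Th3/Th3, by a median of 0.41. The widest gap was for serine, at 0.93 for Sars against -0.07 for Sars2. It was followed by asparagine, at 0.08 for Nars against -0.72 for Nars2, and by arginine, at 0.84 for Rars against 0.17 for Rars2. Histidine was the exception, at -0.02 for Hars against 0.08 for Hars2. The narrowest gap with the cytosolic enzyme higher was for tyrosine, at 0.49 for Yars against 0.44 for Yars2. In Th3/Th3 against Th3/+ the cytosolic change was the higher one in 9 of the 13. The median difference there was 0.14, with a range of -0.43 to 0.55.

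**Figure D3:**
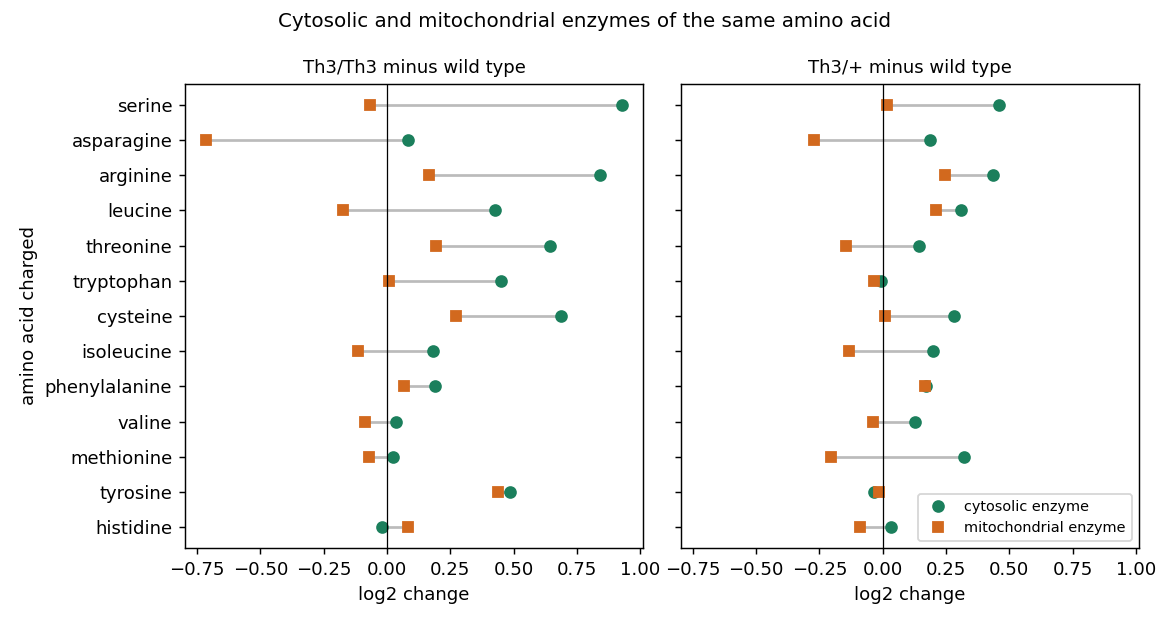
Log2 change of the cytosolic (circle) and mitochondrial (square) enzyme for each of 13 amino acids, in Th3/Th3 against wild type (left) and Th3/+ against wild type (right). The cytosolic enzyme lies to the right for 12 of 13 amino acids in each panel, and both panels share the wild type arrays.

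In Th3/+ cells 0 of the 37 members were called against wild type in either direction (limma). Of all genes tested 0.0155% were called higher and 0.0% lower at the same adjusted threshold. At an unadjusted p under 0.05, 4 members were higher and 0 lower. The share of all genes at that unadjusted threshold was not computed, so the count of 4 has no background. The 4 were Sars, Gars and Rars, described above, and Ears2, the mitochondrial glutamate enzyme. Ears2 read 4.94, 4.56 and 4.84 in Th3/+ and 4.62, 4.35 and 4.42 in wild type arrays, which overlap, a difference of 0.32 (95% interval 0.09 to 0.56, adjusted p = 1.00). In Th3/Th3 it read 4.56, 4.55 and 4.52. The 18 cytosolic enzymes had a median difference of 0.18 in Th3/+ and the 16 mitochondrial ones -0.02, against 0.0054 over all genes tested. All 3 Th3/+ arrays lay above wild type for Gars, Nars, Rars, Sars and Fars2 and below it for Aars2 and Tars2, which is 5 and 2 of 37, against 4.5% and 3.26% of all genes tested.

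By array, the median cytosolic enzyme lay 0.26, 0.29 and 0.61 above its wild type mean in the Th3/Th3 arrays. In Th3/+ arrays 2 and 3 it lay 0.23 and 0.44 above, and in Th3/+ array 1 it lay at -0.05. Wild type arrays lay at 0.07, -0.09 and 0.02, but they make up the reference mean, which holds them near 0. All Th3/Th3 arrays were above all wild type arrays, but Th3/+ replicate 1, which stood apart, was not. The median mitochondrial enzyme lay between -0.07 and 0.04 on all 9 arrays.

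**Figure D4:**
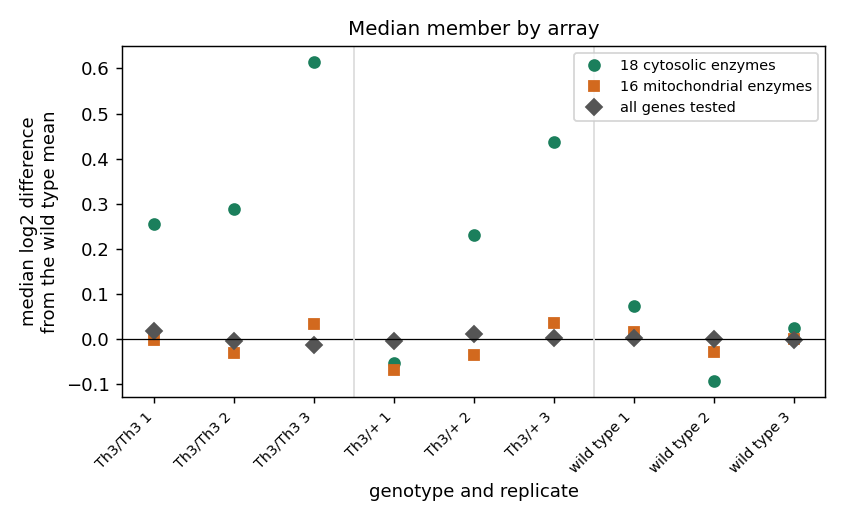
Median difference from the wild type mean (log2) for the 18 cytosolic enzymes, the 16 mitochondrial enzymes and all genes tested, by array. The cytosolic median is 0.26 to 0.61 in Th3/Th3 and spreads from -0.05 to 0.44 in Th3/+, while the mitochondrial median and the median gene stay near 0. The wild type arrays make up the mean they are compared with, which holds them near 0.

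Th3/Th3 against Th3/+ called 2 members higher, Sars and Aimp1, and 0 lower (limma, with 7 and 3 at an unadjusted p under 0.05). Of all genes tested 4.5% were called higher and 3.68% lower, so 2 of 37 (5.41%) lies near the background. These shares are at the adjusted threshold, and no share of all genes was computed for the unadjusted counts. The members at an unadjusted p under 0.05 beside these 2 were Cars, Gars, Qars, Yars and Tars2, higher by 0.34 to 0.52, and Ears2, Lars2 and Nars2, lower by 0.24 to 0.44 (differences of -0.24, -0.38 and -0.44). The cytosolic median was 0.10 and the mitochondrial median -0.01, and the difference of the medians was 0.12. That difference became -0.06 without Th3/+ replicate 1 and 0.35 without Th3/Th3 replicate 1, while without both of these arrays it was 0.15.

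Genes that act beside the synthetases were read from 4 further lists. For comparison, 7.71% of all genes tested were called higher and 5.37% lower in Th3/Th3 against wild type. Of 11 editing, amidotransferase and other charging factors tested, 3 rose in Th3/Th3 and 0 fell, with a median of 0.11. Prorsd1, a domain protein related to the editing part of prolyl-tRNA synthetase, averaged 8.50 ± 0.32 in Th3/Th3 and 7.39 ± 0.13 in wild type arrays (SD, n = 3 each), a rise of 1.11 (limma, adjusted p = 0.00554). Sepsecs, which makes selenocysteine on its tRNA, rose by 0.67 (adjusted p = 0.0229), and Dtd2, which removes wrongly attached amino acids, by 0.60 (adjusted p = 0.0357). Without both arrays that stood apart Prorsd1 alone was called, as it was without Th3/Th3 replicate 1 or 3. The median of the list was 0.27 without Th3/Th3 replicate 1, with or without Th3/+ replicate 1, 0.06 without Th3/Th3 replicate 2 and with each array centred on its median, and 0.22 under the stricter filter. Gatb, Gatc and Qrsl1, the subunits of the mitochondrial glutamine amidotransferase, differed by 0.11, -0.03 and 0.01.

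Of 8 elongation factors 0 passed in Th3/Th3 (limma, with 2 higher and 0 lower at an unadjusted p under 0.05). Eef1b2, an exchange factor of the protein that carries charged tRNA to the ribosome, averaged 11.8 ± 0.040 in Th3/Th3 and 11.5 ± 0.11 in wild type arrays (adjusted p = 0.0966). Eef2, the translocation factor, averaged 12.0 ± 0.21 in Th3/Th3 and 11.7 ± 0.18 in wild type arrays (adjusted p = 0.109). Eef1b2 passed with only the Th3/Th3 and wild type arrays in the fit, without Th3/+ replicate 1 and without both arrays that stood apart, and Eef2 passed without Th3/Th3 replicate 2. Of 24 genes that transcribe, mature or export tRNA, 4 rose and 0 fell, with a median of 0.24. Gtf3c3, a subunit of the TFIIIC factor that binds tRNA genes, rose by 0.71 (adjusted p = 0.00516), and the RNA polymerase III subunit genes Polr3g and Polr3c by 0.67 and 0.55 (adjusted p = 0.0215 and 0.0312). Maf1, the repressor of RNA polymerase III, rose as well, by 0.56 (adjusted p = 0.0258). The count was again 4 without both arrays that stood apart, with Polr3f, another polymerase subunit gene, in place of Maf1, and 1 without wild type replicate 1 or 2. Leaving out wild type replicate 1 or 2, 8.92% and 8.6% of all genes were called in either direction. The median of the list was 0.16 without wild type replicate 1.

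The list of ATF4 target genes outside the synthetases was chosen with earlier results of these data known. Of its 26 members tested, 10 were higher and 2 lower in Th3/Th3, with a median of 0.29. Over all genes tested 7.71% were called higher and 5.37% lower. Nupr1, a stress-induced chromatin protein, averaged 8.31 ± 0.45 in Th3/Th3 and 6.15 ± 0.45 in wild type arrays. Slc7a11, the cystine carrier, averaged 5.54 ± 0.085 in Th3/Th3 and 3.94 ± 0.11 in wild type arrays. Its wild type arrays (3.84 to 4.05) and Th3/+ arrays (3.78 to 4.18) lay near the low end of the values. It passed the filter on low values through its Th3/Th3 arrays, so its place among the 26 rests on its rise. Ddit3 (CHOP) averaged 10.9 ± 0.10 in Th3/Th3 and 9.54 ± 0.15 in wild type arrays, and Slc1a4, a carrier of small neutral amino acids, averaged 5.57 ± 0.18 in Th3/Th3 and 4.95 ± 0.12 in wild type arrays (SD, n = 3 each). All 4 rose (limma, adjusted p at most 0.00665).

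The 2 that fell, named after their values were seen, were also amino acid carriers: Slc6a9, of glycine, by 0.96 and Slc7a5, of large neutral amino acids, by 0.48 (adjusted p = 0.0121 and 0.0202). Atf4 itself, also named after its value was seen, averaged 10.9 ± 0.15 in Th3/Th3 and 10.9 ± 0.080 in wild type arrays (difference 0.05, adjusted p = 0.804). The count for this list was 10 higher and 2 lower without both arrays that stood apart. It was 4 higher without wild type replicate 2 or 3 or Th3/Th3 replicate 2, with 2, 0 and 1 lower. With only the Th3/Th3 and wild type arrays in the fit it was 4 higher and 2 lower. The share of all genes called in either direction, 13.1% in the main fit, was 8.6%, 8.83%, 9.74% and 9.69% in these fits.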

How the data were processed

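RNA of 9 sorted erythroblast samples was amplified, labelled with biotin and hybridized to 1 array each, per the labels' protocols. The deposited table holds log2 values by their range, on a scale the authors had made common (array medians 4.97 to 5.05). The submitters' processing notes name MAS5; a version, a background correction and a summary method were not given in the sources read. No further scaling was applied. The number of arrays limits the precision.

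Of 35556 probe sets, 6617 with identifiers below the first annotated one were taken as the control block and left out. Of the other 28939, 21789 had 1 gene symbol in the platform annotation, 1621 had several and 5529 were not listed, and genes were named only from the first kind. A probe set was kept if it exceeded the 40th percentile within an array for 3 or more of the 9 (17742 were). One mean per genotype was fitted with limma 3.58.1 in R 4.3.3 (lmFit, eBayes with a variance trend), two-sided, with Benjamini-Hochberg adjustment over the kept probe sets and a threshold of 0.05. The procedure was tested on simulated data with independent noise for each probe set and array. Structure shared between arrays was not simulated, so that test does not cover it. An exact permutation of 3 against 3 cannot go below p = 0.1, so calls rest on limma's moderated variance. For counts, each gene had its brightest probe set. Shares of all genes called were computed at the adjusted threshold only, so counts at an unadjusted p have no background.

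The members and lists were chosen with earlier results of these data known, so no p was computed for any list. All members were to be named, with values per array for the called ones and for the 5 uncalled cytosolic and 5 mitochondrial enzymes with the smallest p, and up to 4 called genes of each other list, or else 2 with the smallest p. Alternatives were other filters, scalings, variance models and probe set rules, a replicate block, and leaving out arrays. Replicate numbers are shared by the genotypes, but same-numbered samples did not all deviate together, so they were not taken as pairs.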

Additional observations from a re-analysis of the deposited data

How the results depend on the processing

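Every setting was compared over the same 37 members, or the 31 that a stricter filter kept. In Th3/Th3 against wild type 7 members were called with the replicate number as a block, all of them among the 7 reported, and the block also gave 2 in Th3/Th3 against Th3/+ and 0 in Th3/+ against wild type. The labels do not say what a replicate number marks. Correlations of same-numbered deviations ran from -0.13 to 0.36, and only those of replicate 2 were under 0.1, so the numbers were not used as pairs. In 13 of 18 cases the own number gave the highest correlation, a hint of structure shared by number. Leaving out 1 array gave 3 to 7 called members in Th3/Th3 against wild type, 0 to 3 in Th3/Th3 against Th3/+, and 0 in Th3/+ against wild type. The difference of cytosolic and mitochondrial medians then ran from 0.24 to 0.51, from -0.0587 (without Th3/+ replicate 1) to 0.35 and from 0.14 to 0.26 in these comparisons. Without both arrays that stood apart, 1 member was called in Th3/Th3 against Th3/+ (Pars2, lower), and the difference of medians against wild type was 0.51. Replicate 1 stayed only in wild type there, so the replicate numbers were unbalanced. No called change turned its sign in any of the 18 settings. Among 660 member and setting combinations in Th3/Th3 against wild type, 22 lost and 2 gained a call, and 31 differences that were not called in either fit changed sign. The causes were not tested, beyond the fewer arrays in most of these fits.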
